A study of Homo sapiens with 9 samples.

Results

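Replication-dependent histone genes were followed in total RNA from HEK293T cells and from 2 clones derived from them. HEK293T is a long-established human cell line of embryonic kidney, with SV40 large T antigen added. The members were chosen by name: the linker histones H1-1 to H1-5, and every protein-coding gene whose symbol starts with H2AC, H2BC, H3C or H4C followed by a number. Of 60683 genes in the count tables, 69 met that rule, made up of 5 H1, 17 H2A, 19 H2B, 13 H3 and 15 H4 genes. Each of the 3 groups had 3 libraries. The parental group was HEK293T cells with no reporter named in the labels. Clone 15 and clone 37 were stably transfected through the piggyBac transposon with a pair of luciferase reporters. One, ATG-(CAG)60-Myc-NLuc, carries 60 CAG repeats, and the other, named ATG-(CAG)0-Myc-FLuc, carries none. Both were grown from single sorted cells and picked for reporter level, which was high in clone 37 and low in clone 15. All 3 lines were cultured alike in DMEM with fetal bovine serum. Each reporter level is therefore represented by 1 clone, and the level of the reporter and the identity of the clone cannot be told apart.

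Replication-dependent histone genes supply the H2A, H2B, H3 and H4 proteins that wrap newly made DNA into nucleosomes and the H1 proteins that bind the linker between them. They lie in clusters and are transcribed mainly in S phase. Their mRNAs end in a conserved stem-loop in place of a poly(A) tail. The stem-loop binding protein SLBP and the U7 small nuclear ribonucleoprotein direct the cut that forms this end. Such mRNAs are lost when poly(A) RNA is selected, but are retained in libraries depleted of ribosomal RNA, as these were.

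The stem-loop is what the members share beyond their names, so its forms are shown first. A search for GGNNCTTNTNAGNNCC on the transcript strand of GENCODE 29 models found it in 31 of 69 members, in 6 forms of 16 bases. The same letters occurred in 185 of 58676 genes, or 0.315%. A model that stops short of the mRNA's 3′ end cannot show a match, so no match says nothing about the gene. Other models run on past the stem-loop, by 1917 bases in H2BC26 and 1761 in H2AC11. Whether counts of such genes take in longer transcripts was not tested. The most frequent form was present in 17 members. A GC-richer stem with the same loop was present in 5 H4 genes. Below, 1 member stands for each form, with the 16 bases in capitals and 5 bases on either side, as in GENCODE 29.
H2AC8: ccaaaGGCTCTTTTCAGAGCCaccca
H4C2: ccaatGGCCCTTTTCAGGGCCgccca
H2BC5: ccaaaGGCTCTTTTAAGAGCCacgca
H4C9: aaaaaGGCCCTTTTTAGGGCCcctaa
H3C6: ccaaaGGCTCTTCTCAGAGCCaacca
H2AC11: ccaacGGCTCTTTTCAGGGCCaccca

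Gene counts summed to 10334090 to 13902872 in the parental and clone 37 libraries and 18654063 to 38093340 in clone 15. The clone 15 libraries were read as 100 bp pairs and the others as 75 bp pairs. Reads mapping to several places made up 4.59% to 5.98% of pairs in clone 15 and 10.4% to 14.0% elsewhere. A difference of clone 15 cannot be told apart from one of read length. Parental replicate 2 stood apart from the other parental libraries: its counts differed from theirs by a chi-square of 11.5 and 11.6 per degree of freedom, against 1.99 between replicates 1 and 3. Clone 15 replicate 2 also differed from its group, at 9.97 and 8.20 against 4.53. All 6 genes examined as marks of HEK293T cells (PAX2, EYA1, LHX1, NEFL, NEFM and VIM) were at 6.84 CPM or more in every library. The neurofilament genes differed between the lines: NEFM averaged 568 ± 98.6 CPM in parental cells, 136 ± 1.35 in clone 37 and 2711 ± 107 in clone 15 (SD, n = 3). Summed over 9 markers of blood, endothelium, fibroblasts and hepatocytes, the level was 2.28 to 2.76 CPM in parental libraries, 0.639 to 1.23 in clone 37 and 0.944 to 2.79 in clone 15. HBB was listed at 0 in all libraries. The labels do not say whether replicates were separate cultures, so p-values measure the spread between these libraries only.

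Counts are given as CPM, gene counts scaled to a common total, with library sizes scaled by TMM (trimmed mean of M values). Of the 69 members, 45 passed the filter on low counts in at least 1 comparison and 24 passed in none. The 45 averaged 0.338 to 1024 CPM over the 9 libraries, with a median of 101. The 24 never averaged more than 0.363 CPM, and none had more than 67 counts over all libraries. Among them, 12 had at least 75% of their 75-base words in another gene. These include the duplicated pairs H2AC18 and H2AC19, H3C14 and H3C15, and H4C14 and H4C15, whose reads such counts leave out as mapping to several places. The other 12, H1-1, H1-5, H2AC1, H2BC1, H2BC3, H2BC10, H2BC14, H3C3, H3C8, H4C6, H4C7 and H4C13, shared no word with another gene and overlapped no exon on their strand in GENCODE 29. Why these were near 0 was not tested. Their levels say nothing about change between the lines.

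Summed over all members, histone mRNA was lower in both clones than in parental cells. The sum was 8125, 10443 and 8961 CPM in the parental libraries, 6629, 6471 and 6298 in clone 37, and 6876, 6776 and 7021 in clone 15. Each clone library lay below each parental library, and the parental libraries were the most spread. The mean of clone 37, 6466 ± 165 CPM, was 0.705 of the parental 9176 ± 1174, and that of clone 15, 6891 ± 123, was 0.751 of it (SD, n = 3). The exact two-sided permutation test gave p = 0.1 for both, the smallest that 3 against 3 allows. Parental replicate 2 held the highest sum, and without it the log2 ratio moved from -0.51 to -0.40 in clone 37 and from -0.41 to -0.31 in clone 15. Both comparisons use the same parental libraries. In bulk RNA, fewer cells making histone mRNA and less of it per cell cannot be told apart.

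**Figure D1:**
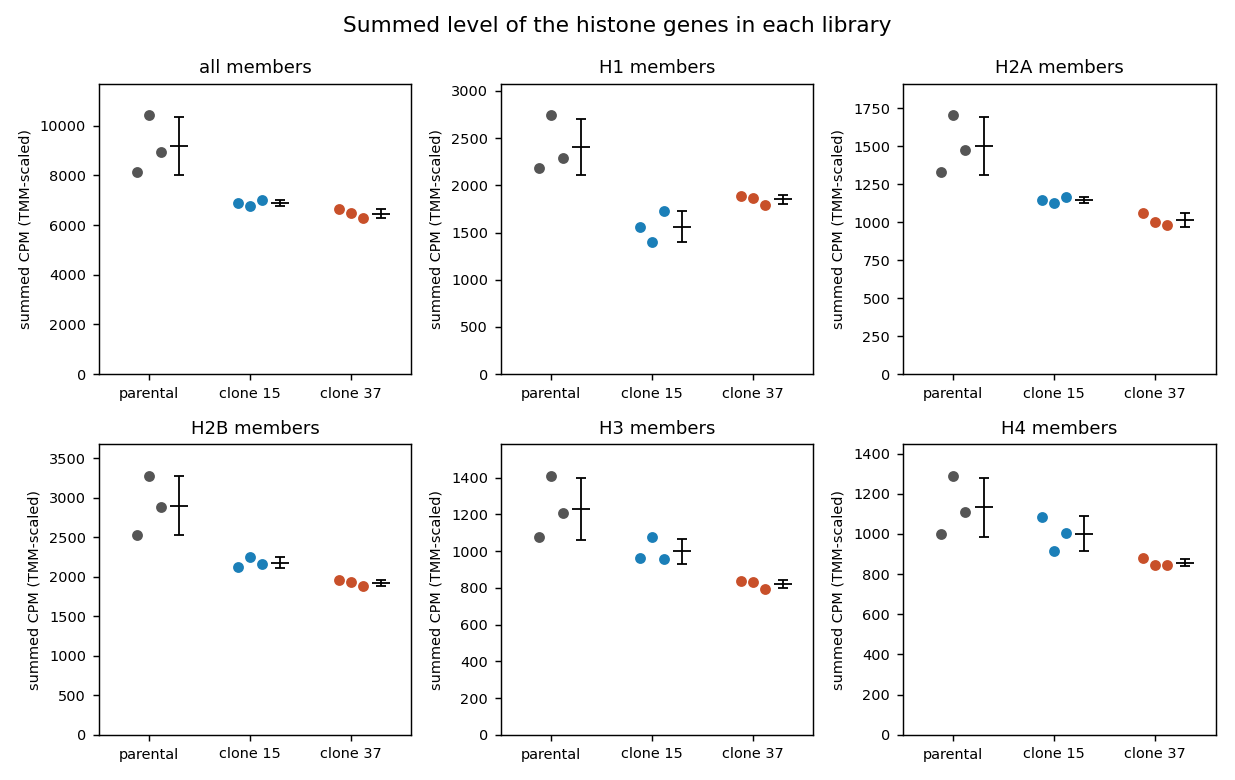
Summed TMM-scaled CPM of all members and of each histone family, 1 point per library, with the mean and SD of 3 libraries beside the points. In the sum over all members every clone library lies below the lowest parental library at 8125 CPM; H1 is lowest in clone 15, and the other families are lowest in clone 37.

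By family, the ratios to parental cells ranged from 0.648 to 0.884. Clone 37 held 0.663 of the parental H2B level, 0.666 of H3, 0.674 of H2A, 0.756 of H4 and 0.769 of H1. Clone 15 held 0.648 of the parental H1 level, 0.752 of H2B, 0.764 of H2A, 0.811 of H3 and 0.884 of H4. H1 made up 26.2% ± 0.664 of member counts in parental cells, 28.6% ± 0.162 in clone 37 and 22.6% ± 1.99 in clone 15 (SD, n = 3). The groups did not overlap in this share, and the exact permutation p was 0.1 in each pair, the smallest possible. The H4 sums of clone 15 and parental cells overlapped (exact permutation p = 0.3).

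In clone 37, nearly every histone gene that could be tested was lower than in parental cells. At a Benjamini-Hochberg adjusted p under 0.05 (edgeR, quasi-likelihood), 42 of 44 tested members changed, 39 lower and 3 higher. Of all 16501 genes tested, 54% changed, 27.3% lower and 26.7% higher. The median log2 fold change of tested members was -0.49, against 0.02 for all genes. The decreases were shared and mostly modest: 3 of the 39 reached 2-fold (H2AC8, H2BC8 and H2AC15), as did 2 of the 3 increases, where 5.62% and 3.38% of all genes did. In 37 of 44 members all clone 37 libraries lay below all parental libraries, against 29.9% of all genes, and in 4 they lay above, against 30%. The 3 called higher were H2BC6, H3C6 and H4C9, all at under 20 CPM, and H3C1 and H2BC9 did not pass the test. H4C9 and H2BC9 passed the filter on low counts only through the clone 37 libraries, so the call of H4C9 is conditioned on its higher level there. Without these, 39 of 42 members were lower and 2 higher, 1 of them by 2-fold or more, libraries lay above for 2, and the median was -0.51. Without parental replicate 2 the counts were again 39 lower and 3 higher, and the median was -0.43.

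In clone 15, fewer histone genes differed from parental cells. Of 43 tested members 27 changed, 22 lower and 5 higher, where 51.4% of 17703 genes changed, 26.2% lower and 25.1% higher. At 2-fold or more, 2 members were lower and 1 higher, against 4.89% and 5.2% of all genes. Libraries did not overlap for 22 members below and 5 above, against 29.3% and 29% of all genes. The median log2 fold change was -0.27, against 0.02 for all genes. H3C11, counted among the lower members, passed the filter only through the parental libraries, and without it 21 of 42 members were lower, 1 of them by 2-fold or more, and 5 higher, libraries lay below for 21, and the median was -0.25. The 5 that rose, H2BC8, H2AC8, H3C7, H3C12 and H4C2, were all among the 39 that fell in clone 37. A further 21 members were called lower in both clones, 13 were called lower in clone 37 and not called in clone 15, and none was called higher in both. Both comparisons use the same parental libraries, and joint shares over all genes are not given here. These joint counts are therefore a description only. Without parental replicate 2, 21 members fell and 5 rose, with a median of -0.19. With trends against GC content and length removed, the median was -0.42, and 24 fell and 3 rose.

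Set directly against clone 15, clone 37 was lower for 26 of 44 tested members and higher for 9, where 57.7% of all 17712 genes differed, 29% lower and 28.7% higher. At 2-fold or more, 6 members were lower and 2 higher, against 6.99% and 4.92% of all genes. Libraries did not overlap for 26 members below and 11 above, against 32.1% and 31.4%. The median log2 fold change was -0.23, against 0.00 for all genes. H4C9, counted among the 9, passed the filter only through clone 37, as did H2BC9, and without these 26 of 42 were lower and 8 higher, 1 of them by 2-fold or more, and libraries lay above for 9. The plot of changes by gene sets the comparisons with parental cells side by side.

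**Figure D2:**
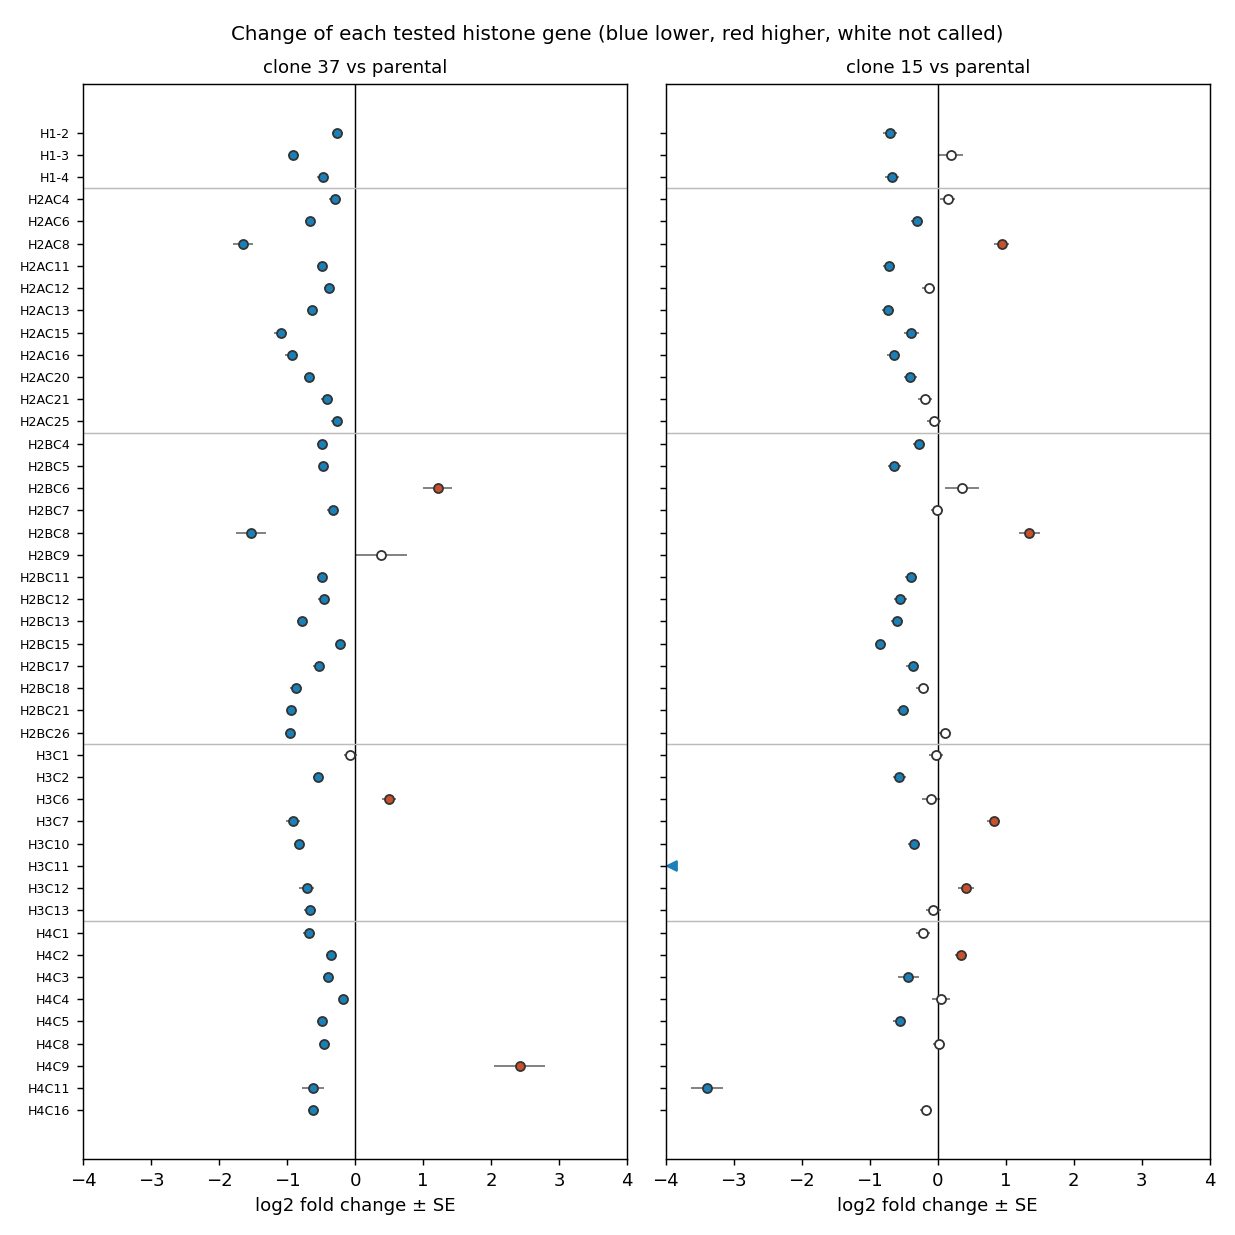
Log2 fold change with its standard error for each tested member, by family, in clone 37 (left) and clone 15 (right) against parental cells; filled points passed an adjusted p under 0.05, and a triangle marks H3C11, whose fitted value of -7.31 is off the axis. On the left 39 of 44 points are filled below 0; on the right 22 of 43 are, and 5 are filled above 0.

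The linker histones H1-2, H1-3 and H1-4 bind the DNA between nucleosomes, and did not move alike. Of the 5 H1 genes these 3 were tested, while H1-1 and H1-5 had at most 20 sense counts each over the 9 libraries. H1-2 stood at 1160, 1411 and 1189 CPM in the parental libraries, 1085, 1044 and 1005 in clone 37, and 787, 667 and 867 in clone 15. No group overlapped another, and clone 15 was the lowest. H1-2 fell by 0.26 ± 0.08 (SE) on the log2 scale in clone 37 (adjusted p = 0.0089) and by 0.70 ± 0.11 in clone 15 (adjusted p = 6.5e-06). The smaller change was lost without clone 37 replicate 3, and its adjusted p ranged from 3.1e-05 to 0.082 over the alternatives.

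H1-4 followed the same order, at 926, 1209 and 988 CPM in parental cells, 744, 758 and 735 in clone 37, and 642, 629 and 701 in clone 15. Clone 37 lay between the others without overlap. Its log2 fold change was -0.48 ± 0.08 in clone 37 and -0.67 ± 0.10 in clone 15 (adjusted p = 8.3e-05 and 6.7e-06). H1-3 differed: 96.6, 127 and 112 CPM in parental cells, 60.5, 61.7 and 57.0 in clone 37, and 129, 98.5 and 157 in clone 15. All clone 37 libraries lay below all others, while clone 15 and parental cells overlapped. H1-3 fell by 0.91 ± 0.08 in clone 37 (adjusted p = 4.6e-08), and its value in clone 15 was 0.19 ± 0.18 (adjusted p = 0.42). Over the alternatives the clone 15 value ran from -0.06 to 0.37 and its adjusted p from 0.013 to 0.86. H1-3 thereby made up 4.43% to 4.88% of H1 counts in parental libraries, 3.17% to 3.31% in clone 37 and 7.06% to 9.08% in clone 15.

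Per kb of exonic length in GENCODE 29, the highest members in parental cells were H1-2 at 1952 CPM per kb, H3C2 at 1618, H2BC12 at 1387 and H1-4 at 1381. These lengths are coding length for H1-2, H3C2 and H2BC12, and the authors' gene models may be longer.

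H2A genes encode the partner of H2B in the nucleosome's outer dimers. All 11 of the 17 H2A genes that were tested fell in clone 37, by 0.27 to 1.65 on the log2 scale. Of all genes, 27.3% fell there. In clone 15, 6 fell (54.5%) and 1 rose (9.09%), against 26.2% and 25.1% of all genes. H2AC11, the highest of them by mean CPM, was at 290, 360 and 321 CPM in parental cells, 240, 231 and 219 in clone 37, and 198, 183 and 210 in clone 15. The 3 groups did not overlap. It fell by 0.49 ± 0.07 in clone 37 and by 0.72 ± 0.09 in clone 15 (adjusted p = 9.8e-06 and 2.5e-07).

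H2AC13 also fell in both clones, by 0.63 ± 0.07 and 0.73 ± 0.09 (adjusted p = 1.1e-06 and 3.0e-07). It was at 251 ± 32.8 CPM in parental cells, 162 ± 6.55 in clone 37 and 152 ± 10.8 in clone 15 (SD, n = 3), and the clones overlapped. Another gene holds 60.1% of its 75-base words and 57.7% of its 100-base words, so its counts are uncertain. H2AC12 fell in clone 37 by 0.38 ± 0.07 (adjusted p = 0.00020), and its clone 15 value was -0.13 ± 0.09 (adjusted p = 0.25). Between the clones its log2 fold change was -0.25 ± 0.06 (adjusted p = 0.0017), and the call was lost once GC and length trends were removed, with the value still at -0.25 (adjusted p 2.0e-08 to 0.30 over the alternatives). H2AC15 had 34.2, 43.4 and 38.5 CPM in parental cells, 18.3, 19.5 and 16.9 in clone 37, and 29.4, 33.9 and 25.6 in clone 15. It fell by 1.09 ± 0.09 in clone 37 and by 0.39 ± 0.11 in clone 15, with no overlap between groups (adjusted p = 3.7e-08 and 0.0042).

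H2B genes, whose products pair with H2A, held the largest share of member counts in parental cells, 31.6% ± 0.509 (SD, n = 3). Of 14 tested in clone 37, 12 fell (85.7%) and 1 rose (7.14%), against 27.3% and 26.7% of all genes. Of 13 tested in clone 15, 8 fell (61.5%) and 1 rose (7.69%), against 26.2% and 25.1% of all genes. H2BC12, the highest by mean CPM, was at 459, 604 and 522 CPM in parental cells, 386, 388 and 375 in clone 37, and 361, 371 and 351 in clone 15. Every clone library lay below every parental one. It fell by 0.46 ± 0.08 and 0.55 ± 0.09 (adjusted p = 5.7e-05 and 2.6e-05). It shares 50.5% of its 75-base words with another gene and 28.4% of its 100-base words, so longer reads can place more of it, and its counts are uncertain. H2BC5 was lower at log2 fold changes of -0.47 ± 0.07 in clone 37 and -0.64 ± 0.09 in clone 15 (adjusted p = 1.9e-05 and 3.0e-06).

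H2BC18, a gene of the chromosome 1 cluster, separated the clones. It was at 319, 437 and 393 CPM in parental cells, 213, 211 and 204 in clone 37, and 321, 335 and 335 in clone 15. Clone 37 lay below all others and clone 15 lay within the parental range. It fell by 0.87 ± 0.08 in clone 37 (adjusted p = 7.0e-07), its clone 15 value was -0.22 ± 0.10 (adjusted p = 0.061), and clone 37 was lower than clone 15 by a log2 fold change of -0.65 ± 0.05 (adjusted p = 1.5e-11). Over the alternatives the clone 15 value ran from -0.35 to -0.12 and its adjusted p from 0.0050 to 0.20. Another gene holds 21.8% of its 75-base words.

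H2BC15 showed the reverse. It was at 117, 139 and 121 CPM in parental cells, 113, 107 and 103 in clone 37, and 71.3, 70.2 and 68.8 in clone 15. It fell by 0.22 ± 0.06 in clone 37 and by 0.85 ± 0.08 in clone 15 (adjusted p = 0.0069 and 5.2e-09). The clone 37 call was lost without clone 37 replicate 3 (adjusted p 0.0020 to 0.054 over the alternatives). Between the clones the log2 fold change was 0.62 ± 0.06 (adjusted p = 5.4e-10). In GENCODE 29 its model overlaps exons of H2AC16 on the same strand.

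H2BC6 was the H2B gene that rose in clone 37. It was at 2.67, 1.90 and 2.04 CPM in parental cells, 5.11, 4.56 and 5.51 in clone 37, and 2.96, 2.43 and 3.06 in clone 15. It rose by 1.21 ± 0.22 on the log2 scale in clone 37 (adjusted p = 0.00013), with no overlap, and its clone 15 value was 0.36 ± 0.25 (adjusted p = 0.23). Its words are shared with another gene for 27.8% of its length, so its counts are less certain than those of unique members.

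H3 genes encode the core histone whose tail carries many of the known chromatin marks. Of 7 tested in clone 37, 5 fell and 1 rose, and of 8 tested in clone 15, 3 (H3C11 among them) were called lower and 2 rose. The clone 37 shares were 71.4% lower and 14.3% higher, against 27.3% and 26.7% of all genes. The clone 15 shares, 37.5% lower and 25% higher, were near the 26.2% and 25.1% of all genes. H3C2, the highest, was at 586, 758 and 651 CPM in parental cells, 462, 468 and 439 in clone 37, and 436, 483 and 435 in clone 15. Both clones lay below parental cells and overlapped each other. It fell by 0.54 ± 0.08 and 0.56 ± 0.10 (adjusted p = 1.1e-05 and 3.0e-05).

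H3C10 fell by 0.83 ± 0.07 in clone 37 and 0.35 ± 0.09 in clone 15 (adjusted p = 4.1e-08 and 0.0026), from 303 ± 39.1 CPM in parental cells to 170 ± 3.59 and 239 ± 15.4 (SD, n = 3). H3C1 passed the test in no comparison. It was at 61.4, 87.2 and 76.2 CPM in parental cells, 75.5, 67.8 and 70.5 in clone 37, and 68.9, 82.4 and 70.7 in clone 15. The 3 groups overlapped, with log2 fold changes of -0.07 ± 0.10 and -0.02 ± 0.11 against parental cells (adjusted p = 0.54 and 0.87). H3C6 rose in clone 37, from 11.1, 11.9 and 10.5 CPM to 16.2, 15.3 and 15.8, and averaged 10.5 ± 0.473 in clone 15 (SD, n = 3). The clone 37 change was 0.50 ± 0.11 (adjusted p = 0.00080).

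H4 genes encode the partner of H3. Of 9 tested in clone 37, 8 fell (88.9%) and 1 (H4C9) was called higher (11.1%), against 27.3% and 26.7% of all genes. Of 8 tested in clone 15, 3 fell (37.5%) and 1 rose (12.5%), a few calls against 26.2% and 25.1% of all genes. H4C5 fell in both clones, by 0.48 ± 0.07 and 0.56 ± 0.09 (adjusted p = 2.4e-05 and 1.3e-05), from 273 ± 36.6 CPM (SD, n = 3) to 198, 200 and 188 in clone 37 and 198, 181 and 178 in clone 15. H4C3 was at 250, 334 and 289 CPM in parental cells, 226, 212 and 221 in clone 37, and 239, 167 and 243 in clone 15. It fell by 0.40 ± 0.08 in clone 37 (adjusted p = 0.00031) and 0.43 ± 0.15 in clone 15 (adjusted p = 0.036). Over the alternatives the clone 15 value ran from -0.60 to -0.25. Clone 15 replicate 2 was far below its group here, and the clone 15 call was lost under 4 alternatives, including without parental replicate 2 or without parental replicate 3 (adjusted p 3.3e-05 to 0.29 over the alternatives). H4C4, at 159, 186 and 170 CPM in parental cells, 160, 149 and 144 in clone 37 and 218, 140 and 176 in clone 15, overlapped in every pair. Its log2 fold change in clone 37, -0.18 ± 0.06 (adjusted p = 0.019), was lost under 4 alternatives, among them without clone 37 replicate 2 or 3 (adjusted p 0.0040 to 0.30).

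For 5 members, the clones moved in opposite directions, lower in clone 37 and higher in clone 15. H3C12 and H4C2 are named here because they complete the 5, after their values were seen. H2AC8 was at 15.1, 20.2 and 17.8 CPM in parental cells, 6.57, 4.46 and 5.84 in clone 37, and 33.5, 34.7 and 34.4 in clone 15. The groups were far apart. It fell by 1.65 ± 0.15 in clone 37 and rose by 0.94 ± 0.11 in clone 15 (adjusted p = 5.6e-08 and 6.5e-08). H2BC8 was at 5.80, 8.64 and 5.37 CPM in parental cells, 2.46, 2.09 and 2.27 in clone 37, and 16.2, 16.2 and 18.6 in clone 15. It fell by 1.53 ± 0.22 in clone 37 and rose by 1.35 ± 0.15 in clone 15 (adjusted p = 1.6e-05 and 8.1e-08). Between the clones the log2 fold change was -2.59 ± 0.11 for H2AC8 and -2.89 ± 0.15 for H2BC8, a direction that their opposite changes already fix.

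H2AC8 and H2BC8 are neighbours on chromosome 6 that point away from each other, with 283 bases between their starts in GENCODE 29, so their promoters are one stretch of DNA. RefSeq promoters of 300 bases (250 before the start and 50 after) overlap by 268 bases for the pair. The H2BC8 promoter is shown because the pair fell most in clone 37. It lies on the minus strand at chr6:26216639-26216938 of GRCh38.p14. Capitals mark ATTTGCAT (the octamer bound by POU2F1), CCAAT and TATAAA on either strand. The octamer was present in 14 of 18 H2B promoters, 11 of 16 H2A, 1 of 11 H3 and none of 5 H1 or 13 H4, against 1.77% of 35116 promoters. The H3 match is an H3C4 promoter at the same place as that of H2AC7, and the other H3C4 promoter held none. A member counted if any of its promoters matched, while shares of all promoters count each one.
H2BC8 promoter: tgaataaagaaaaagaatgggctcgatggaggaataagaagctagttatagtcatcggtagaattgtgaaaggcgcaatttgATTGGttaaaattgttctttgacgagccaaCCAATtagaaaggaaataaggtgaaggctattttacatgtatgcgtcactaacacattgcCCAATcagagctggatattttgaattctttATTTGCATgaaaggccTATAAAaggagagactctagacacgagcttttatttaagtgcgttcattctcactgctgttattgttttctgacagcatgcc

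CCAAT was present in 53 of the 63 members with a promoter in the table, against 34.6% of all promoters, and TATAAA in 43 of 63, against 11.5%. All H1, H2A, H2B and H3 promoters held CCAAT, and 3 of 13 H4 promoters did. These matches are a description of letters and not of binding.

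H3C7 was at 37.9, 51.6 and 40.6 CPM in parental cells, 23.4, 24.5 and 21.2 in clone 37, and 74.6, 80.2 and 77.0 in clone 15. No groups overlapped. It fell by 0.92 ± 0.10 in clone 37 and rose by 0.83 ± 0.10 in clone 15 (adjusted p = 7.6e-07 and 1.3e-07). Its promoter, at chr6:26250586-26250885 on the minus strand of GRCh38.p14, is shown beside that of H2BC8 because it changed the same way without an octamer in the window.
H3C7 promoter: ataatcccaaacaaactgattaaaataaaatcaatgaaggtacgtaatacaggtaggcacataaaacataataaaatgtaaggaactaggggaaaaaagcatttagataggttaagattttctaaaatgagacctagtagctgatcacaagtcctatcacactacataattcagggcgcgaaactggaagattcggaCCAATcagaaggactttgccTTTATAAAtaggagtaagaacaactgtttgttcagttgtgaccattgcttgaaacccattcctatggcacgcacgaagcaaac

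H3C12 was at 40.5, 59.6 and 47.2 CPM in parental cells, 31.7, 30.2 and 28.3 in clone 37, and 64.8, 71.7 and 60.9 in clone 15. It fell by 0.71 ± 0.11 in clone 37 and rose by 0.42 ± 0.11 in clone 15 (adjusted p = 8.6e-05 and 0.0043). In GENCODE 29 it overlaps H2AC17 on the same strand and shares 38.8% of its words with another gene. H4C2 was at 139, 177 and 149 CPM in parental cells, 125, 113 and 125 in clone 37, and 210, 197 and 184 in clone 15. It fell by 0.36 ± 0.07 in clone 37 and rose by 0.34 ± 0.09 in clone 15 (adjusted p = 0.00046 and 0.0022). The clone 15 increases of H3C12 and H4C2 were not called once GC and length trends were removed, with values of 0.18 and 0.10. Over the alternatives their adjusted p ran from 2.2e-05 to 0.34 and from 1.9e-05 to 0.48.

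H4C11 was the member with the largest fitted decrease in clone 15 among those at 1 CPM or more. Counts were 95, 121 and 103 in parental libraries, 70, 46 and 73 in clone 37, and 23, 26 and 16 in the deeper clone 15 libraries, or 8.75, 9.17 and 7.79 CPM, 6.39, 4.37 and 5.92 CPM, and 0.603, 1.04 and 0.858 CPM. No groups overlapped. The log2 fold change was -0.62 ± 0.16 in clone 37 and -3.40 ± 0.23 in clone 15 (adjusted p = 0.0039 and 1.2e-11). Of its 75-base words 79.6% occur in another gene, and of its 100-base words 77.7%, so its counts are uncertain. How many of its reads could be placed was not measured. Its promoter, at chr6:27823842-27824141 on the plus strand of GRCh38.p14, held TATAAA but no CCAAT and no octamer, as shown here. That of H4C2, which was called higher in clone 15, held the same. None of 13 H4 promoters held an octamer. Any link of these letters to the changes was not tested.
H4C11 promoter: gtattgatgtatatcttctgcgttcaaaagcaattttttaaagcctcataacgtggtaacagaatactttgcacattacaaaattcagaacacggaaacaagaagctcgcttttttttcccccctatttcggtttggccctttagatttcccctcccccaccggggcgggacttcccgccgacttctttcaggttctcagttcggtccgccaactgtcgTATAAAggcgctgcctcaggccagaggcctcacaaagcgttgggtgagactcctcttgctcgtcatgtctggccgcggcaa

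**Figure D3:**
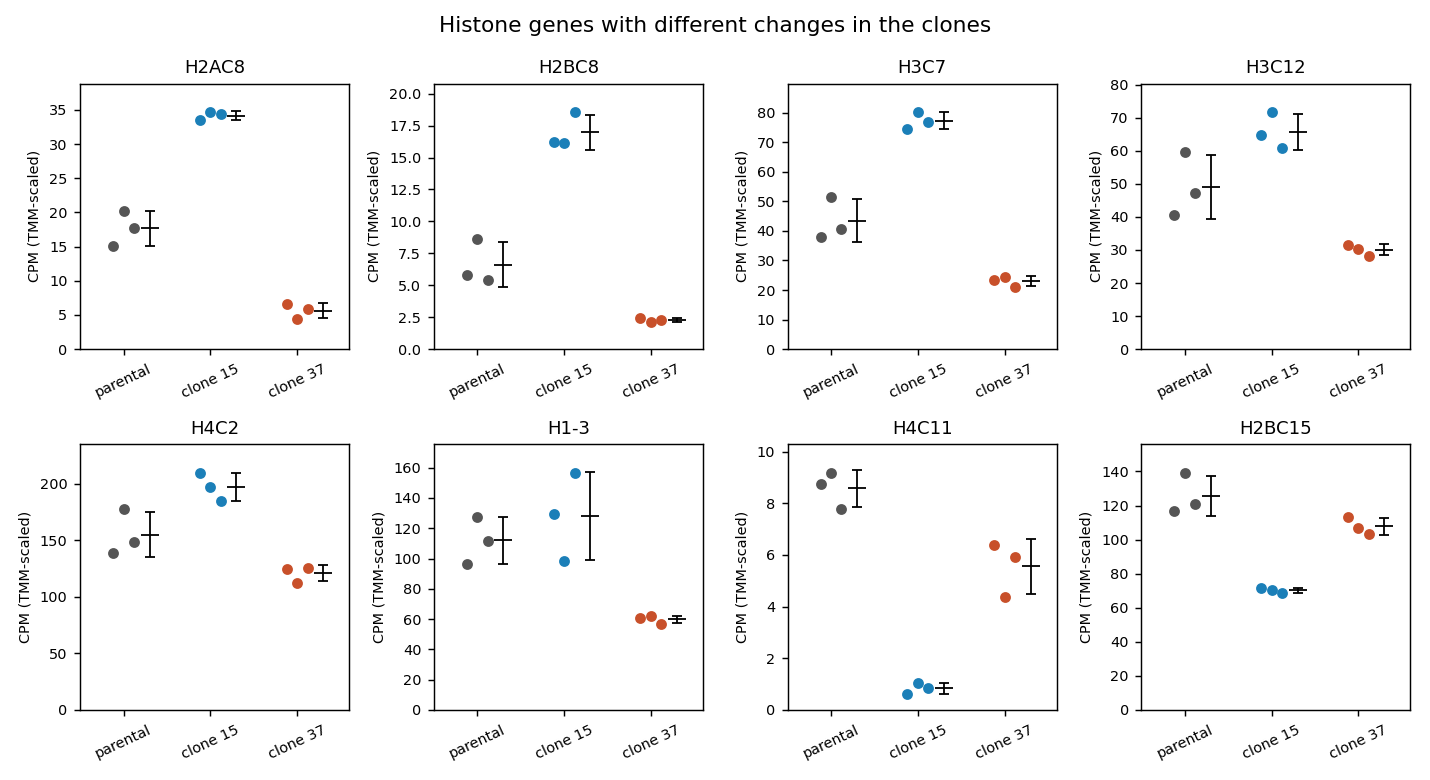
TMM-scaled CPM of 8 members in each library, with the mean and SD of 3 libraries beside the points; each panel has its own axis, starting at 0. H2AC8, H2BC8, H3C7, H3C12 and H4C2 are lowest in clone 37 and highest in clone 15, H1-3 is lowest in clone 37, and H4C11 and H2BC15 are lowest in clone 15.

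Some members at the edge of detection also differed, and are named after their values were seen. H3C11 had 9, 12 and 16 counts in the parental libraries, 0, 1 and 0 in clone 37, and 0 in all clone 15 libraries. Taking 3 counts in a library as the floor, parental cells were at least 8.08-fold higher than clone 15. Against clone 37 the ratio of pooled counts was 32.9, with an exact 95% interval of 5.56 to 1336 that covers counting error only. Since H3C11 passed the filter through the parental libraries alone, its test against clone 15 carries no weight. H4C9 had 5, 5 and 5 counts in parental libraries, 29, 26 and 19 in clone 37, and 8, 2 and 2 in clone 15. Scaled by library totals, the pooled counts of clone 37 were 5.54 times the parental ones, with an exact 95% interval of 3.15 to 10.4 for counting error. Its test likewise carries no weight, since clone 37 alone took it past the filter. Counts on the strand opposite to H4C9 were far higher, 1903 against 101 over the 9 libraries, and with unstranded counts the log2 fold change was 1.27. Between 92.6% and 94.0% of stranded gene counts lay on the transcript strand, and the part of the other strand in its sense counts was not tested.

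Divergent neighbours were compared across the clusters, since H2A and H2B genes often share a promoter stretch. By RefSeq starts on GRCh38.p14, 14 pairs of members lay on opposite strands with starts under 1000 bases apart. Both members were tested in 9 pairs in clone 37, and both fell in 8, where 88.6% of all tested members fell. The other pair was H3C7, which fell, and H2BC9, which did not pass the test. In clone 15 both were tested in 8 pairs. Both fell in 5 of them, where 51.2% of all tested members fell and 11.6% rose. Both rose in the H2BC8 and H2AC8 pair, and H2BC12 fell beside H2AC12, which did not pass. H2AC25 and H2BC26 had unlike signs, at -0.05 and 0.11, and neither passed. Between the clones both were tested in 9 pairs. In 4 of these both were called lower in clone 37, where 59.1% of all tested members were. The call of H2AC25, in 1 of the 4, was lost under 9 alternatives. The signs were unlike in the rest, and H2AC15 and H2BC15 were called in opposite directions, at -0.71 and 0.62. Members of a pair could differ in size as well. In clone 37, H2AC15 and H2BC15, with starts 194 bases apart, had log2 fold changes of -1.09 and -0.22, and H2AC25 and H2BC26, with starts 230 bases apart, had -0.27 ± 0.08 and -0.96 ± 0.07 (adjusted p = 0.0092 and 1.0e-08). The calls of H2BC15 and H2AC25, and with them 2 of the 8 pairs, were lost without clone 37 replicate 3 (adjusted p 0.00098 to 0.064 over the alternatives for H2AC25). In GENCODE 29 the H2BC15 model also overlaps H2AC15 on the other strand. H2BC26 was at 107, 132 and 123 CPM in parental cells, 67.9, 58.0 and 60.2 in clone 37, and 128, 140 and 123 in clone 15. These neighbours were likewise named after their values were seen. The map in chromosome order shows that the opposite movers were not a single block. H2BC8, H2AC8 and H3C7 lie close together, from 26215159 to 26250605 on chromosome 6 in GENCODE 29. H4C2 and H3C12 lie apart from them, starting at 26026815 and 27890382. H3C6 and H1-3 lie within the first stretch, and neither was called higher in clone 15.

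**Figure D4:**
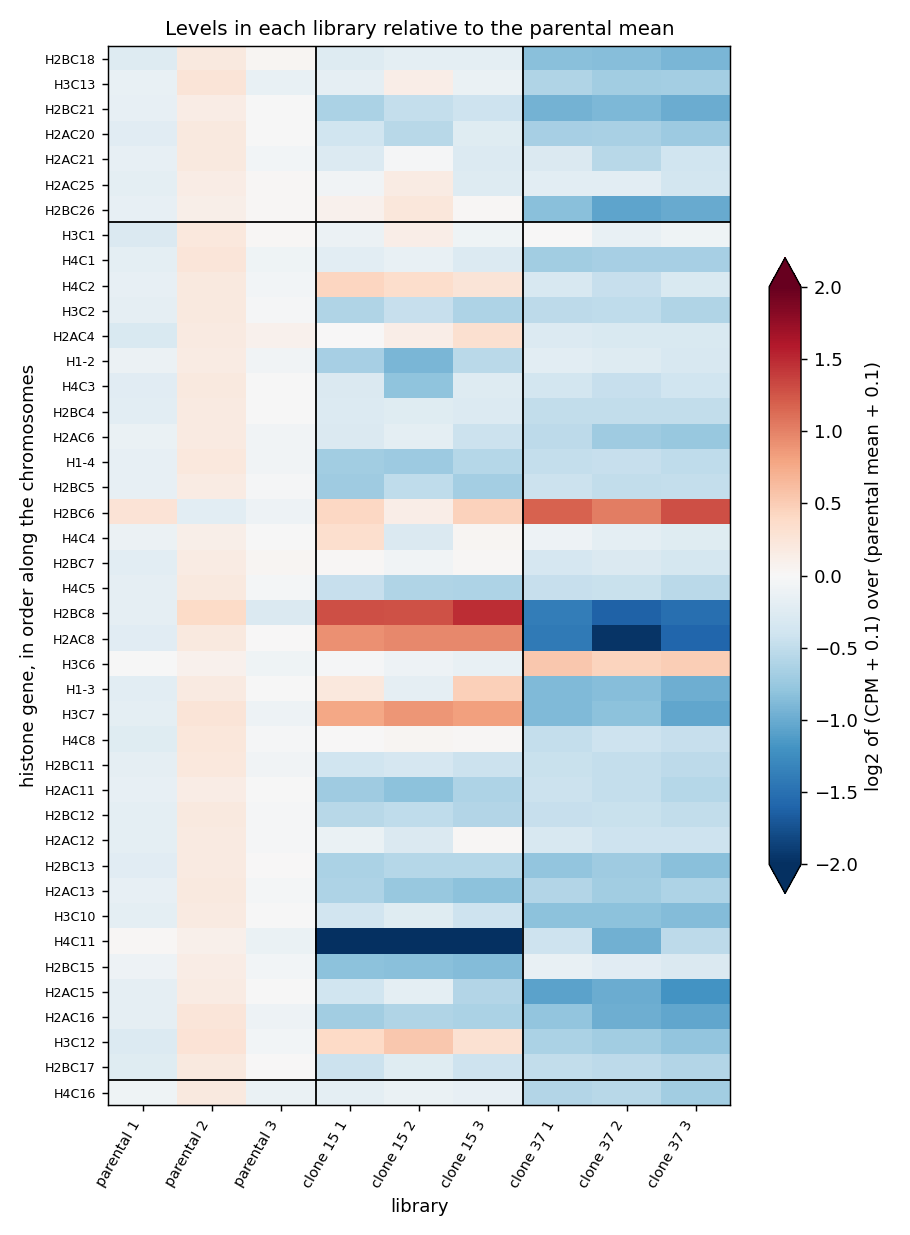
Log2 ratio of each library to the parental mean (0.1 CPM added to both) for the 42 members at 1 CPM or more, in order along chromosomes 1, 6 and 12, with black lines between chromosomes and groups; colours are cut at 2 in either direction, which H4C11 passes in clone 15. H2BC8 and H2AC8 are neighbours with opposite colours in the 2 clones, while most rows are blue in clone 37.

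Of the 27 genes listed for the processing of histone mRNA 26 were tested. In clone 37, 12 rose (46.2%) and 5 fell (19.2%), and in clone 15, 11 rose (42.3%) and 5 fell (19.2%). Of all genes, 26.7% rose and 27.3% fell in clone 37, and 25.1% rose and 26.2% fell in clone 15. Between the clones 8 were higher (30.8%) and 9 lower (34.6%) in clone 37, against 28.7% and 29% of all genes. Without clone 37 replicate 3, 11 were called in clone 37 in place of 17. The medians were 0.11, 0.08 and -0.01, against all-gene medians of 0.02, 0.02 and 0.00. SLBP, which binds the stem-loop, was at 76.7, 89.4 and 76.9 CPM in parental cells, 79.3, 78.9 and 80.8 in clone 37, and 96.5, 89.6 and 94.0 in clone 15. Clone 15 was the highest and the other groups overlapped. Its log2 fold change was -0.02 ± 0.06 in clone 37 (adjusted p = 0.77) and 0.20 ± 0.08 in clone 15 (adjusted p = 0.044, and 0.0031 to 0.51 over the alternatives).

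The U7 particle carries LSM10 and LSM11 in place of common Sm proteins, and these moved apart. LSM10 rose by 0.49 ± 0.09 in clone 37 and 0.54 ± 0.11 in clone 15 (adjusted p = 0.00013 and 0.00016). LSM11 was at 75.4, 80.0 and 74.4 CPM in parental cells, 61.3, 63.4 and 58.3 in clone 37, and 49.9, 49.4 and 45.9 in clone 15, with no overlap. It fell by 0.33 ± 0.06 and 0.66 ± 0.08 (adjusted p = 0.00023 and 2.6e-07). CPSF3, the endonuclease of the cleavage complex, fell by 0.37 ± 0.06 in clone 37 and 0.82 ± 0.09 in clone 15 (adjusted p = 9.0e-05 and 1.6e-08). SNRPF, a common Sm protein, rose by 0.53 ± 0.08 and 0.72 ± 0.09 (adjusted p = 1.6e-05 and 4.3e-07). CSTF2, a cleavage stimulation factor, fell by 0.45 ± 0.07 in clone 37 and rose by 0.30 ± 0.09 in clone 15 (adjusted p = 4.3e-05 and 0.0055). SYMPK, the scaffold symplekin, fell by 0.19 ± 0.06 in clone 37 and rose by 0.28 ± 0.08 in clone 15 (adjusted p = 0.013 and 0.0045). Over the alternatives the adjusted p reached 0.16 for CSTF2 in clone 15, and 0.060 and 0.051 for SYMPK in clone 37 and clone 15. ERI1, an exonuclease that trims and degrades histone mRNA ends, rose by 0.22 ± 0.09 in clone 37 and fell by 0.25 ± 0.10 in clone 15 (adjusted p = 0.045 and 0.036, and 0.00055 to 0.28 and 0.015 to 0.93 over the alternatives). ZNF473, a U7-associated protein, had 0.10 ± 0.08 in clone 37 and rose by 0.29 ± 0.09 in clone 15 (adjusted p = 0.29 and 0.011), the latter lost with unstranded counts and without parental replicate 1 or 3 (adjusted p 0.0039 to 0.095 over the alternatives). RNU7-1, the U7 RNA itself, was listed at 0 in all libraries.

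Of the transcription factors of histone genes, HINFP, which acts on H4 promoters, rose by 0.43 ± 0.09 in clone 37 and 0.49 ± 0.10 in clone 15 (adjusted p = 0.00084 and 0.00017). NPAT, the coactivator that links cyclin E to histone transcription, had 0.16 ± 0.06 in clone 37 (adjusted p = 0.038), a call lost under 11 of 14 alternatives (adjusted p 0.0019 to 0.31). Its clone 15 value was -0.11 ± 0.08 (adjusted p = 0.25), which turned to 0.20 with GC and length trends removed (adjusted p 0.013 to 0.68 over the alternatives). CASP8AP2, a component of histone locus bodies, had 0.08 ± 0.06 in clone 37 (adjusted p = 0.25) and -0.23 ± 0.08 in clone 15 (adjusted p = 0.019, and 0.0066 to 0.19 over the alternatives). The clone 15 call was lost without clone 15 replicate 2, and the value turned to 0.098 once GC and length trends were removed.

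Histone variants are made also outside S phase, mostly from polyadenylated mRNAs. Of 10 examined, 3 rose and 3 fell in clone 37, 3 rose and 2 fell in clone 15, and 1 was higher and 5 lower in clone 37 than in clone 15. As shares these were 30% and 30%, 30% and 20%, and 10% and 50%, where all genes had 26.7% and 27.3%, 25.1% and 26.2%, and 28.7% and 29%. H2AZ2, an H2A.Z gene, was at 217, 251 and 242 CPM in parental cells, 149, 137 and 150.4 in clone 37, and 192, 191 and 197 in clone 15. All 3 groups were separate, with clone 37 lowest and parental cells highest. It fell by 0.70 ± 0.06 in clone 37 and 0.30 ± 0.08 in clone 15 (adjusted p = 5.4e-08 and 0.0035). H3-3A, which encodes H3.3 and has near-identical pseudogenes that make its counts uncertain, rose by 0.35 ± 0.08 in clone 15 (adjusted p = 0.00097), with 0.15 ± 0.06 in clone 37 (adjusted p = 0.056, ranging from 0.043 without parental replicate 2 to 0.25 over the alternatives). H1-10, a linker histone variant, fell by 0.77 ± 0.07 and 0.34 ± 0.10 in clone 37 and clone 15 (adjusted p = 4.6e-08 and 0.0080), the latter lost under 4 alternatives: unstranded counts, without parental replicate 2, and without clone 15 replicate 1 or 3 (adjusted p 0.00011 to 0.52). H2AJ, an H2A variant at 6.40 to 11.5 CPM, rose by 0.52 ± 0.14 in clone 37 (adjusted p = 0.0050) and had 0.00 ± 0.16 in clone 15 (adjusted p = 0.998). MACROH2A1, a macroH2A gene, rose by 0.26 ± 0.06 and 0.40 ± 0.08 (adjusted p = 0.0011 and 0.00014).

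Of 22 chaperones, which carry histones to DNA, 8 rose (36.4%) and 5 fell (22.7%) in clone 37, and 5 rose and 5 fell in clone 15 (22.7% each). Over all genes these shares were 26.7% and 27.3% in clone 37, and 25.1% and 26.2% in clone 15. Between the clones 5 chaperones were higher (22.7%) and 2 lower (9.09%) in clone 37, against 28.7% and 29% of all genes. HAT1, which acetylates new H4, fell by 0.51 ± 0.07 in clone 37 and 0.66 ± 0.08 in clone 15 (adjusted p = 4.1e-06 and 3.2e-07). UBN1, a subunit of the HIRA complex, rose by 0.52 ± 0.05 in clone 37 (adjusted p = 4.3e-07), with 0.15 ± 0.08 in clone 15 (adjusted p = 0.11). ATRX, which deposits H3.3 together with DAXX, fell by 0.48 ± 0.08 in clone 15 (adjusted p = 4.0e-05) and had -0.02 ± 0.06 in clone 37 (adjusted p = 0.79). SUPT16H, a subunit of FACT, fell by 0.43 ± 0.07 in clone 37 (adjusted p = 4.1e-05), with -0.02 ± 0.09 in clone 15 (adjusted p = 0.88).

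Of 25 genes transcribed around S phase, 7 rose (28%) and 8 fell (32%) in clone 37, near the 26.7% and 27.3% over all genes. In clone 15, 4 rose (16%) and 10 fell (40%), against 25.1% and 26.2% of all genes. Between the clones 10 were higher (40%) and 7 lower (28%) in clone 37, against 28.7% and 29%. Their medians were 0.02, -0.11 and 0.09.

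Among S phase genes, MCM5, a subunit of the replicative helicase, fell by 0.96 ± 0.06 in clone 37 (adjusted p = 5.6e-10), and its clone 15 value was -0.11 ± 0.08 (adjusted p = 0.24). MCM4, another subunit, fell by 0.82 ± 0.09 in clone 15 (adjusted p = 2.2e-08), with -0.14 ± 0.06 in clone 37 (adjusted p = 0.079). CCNE2, a cyclin E gene, was at 23.7, 26.7 and 23.1 CPM in parental cells, 33.1, 35.9 and 33.5 in clone 37, and 15.9, 14.9 and 12.9 in clone 15. It rose by 0.48 ± 0.08 in clone 37 and fell by 0.75 ± 0.11 in clone 15 (adjusted p = 8.4e-05 and 5.9e-06). LIG1, a DNA ligase, fell by 0.92 ± 0.07 and 0.41 ± 0.08 (adjusted p = 6.6e-09 and 0.00012). CDT1, a licensing factor, fell by 0.85 ± 0.09 in clone 15 (adjusted p = 4.7e-08), with 0.02 ± 0.07 in clone 37 (adjusted p = 0.85). GINS2, of the replicative helicase, rose by 0.48 ± 0.06 in clone 37 and fell by 0.40 ± 0.09 in clone 15 (adjusted p = 6.4e-06 and 0.00041). The part of S phase genes in the histone values was not tested.

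Other short RNAs without a poly(A) tail were set beside the members. RN7SL1, the RNA of the signal recognition particle, averaged 6757 ± 439 CPM in clone 37, against 10433 ± 965 in parental cells and 11985 ± 676 in clone 15 (SD, n = 3). It fell by 0.62 ± 0.11 in clone 37 (adjusted p = 7.9e-05), and its clone 15 value was 0.20 ± 0.13 (adjusted p = 0.22). Over the alternatives the clone 15 value ran from -0.01 to 0.25 and its adjusted p from 0.0038 to 0.97. Of the 11 short RNAs listed, 3 were tested, and 1 fell in each clone: RN7SL1 in clone 37 and RNU6ATAC in clone 15. That share, 33.3%, was near the 27.3% and 26.2% of all genes that fell in clone 37 and clone 15. RNU6ATAC fell by 1.53 ± 0.41 in clone 15 (adjusted p = 0.0031). The part of RNA recovery in the histone values was not tested.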

How the data were processed

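Total RNA from 3 lines with 3 libraries each was sequenced after ribosomal RNA was depleted. Strand-keeping libraries took 500 ng of input and 13 amplification cycles, per the labels' protocols. Each library has 1 deposited table of raw gene counts, in the layout of STAR's gene counts, which leave out reads that map to several places. The submitters' processing notes name FastQC 0.11.9, STAR 2.7.10a and hg38. The annotation release is not given in the sources used here. The transcript-strand column was used, and the 4 summary entries (40.3% to 49.1% of read pairs) stayed out of library sizes and tests.

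Each comparison was fitted on its 6 libraries with edgeR 4.0.16 in R 4.3.3 (filterByExpr, TMM, glmQLFit with robust estimation, glmQLFTest), on all genes that passed the filter. P-values were adjusted by Benjamini-Hochberg across the genes of a fit, and genes called under 0.05. Standard errors are the log2 fold change over the square root of F. Printed CPM use TMM factors over the 9 libraries. Summed levels were compared by exact two-sided permutation over libraries (smallest p 0.1). The fitting code was tested on simulated data, where the share of false calls lay above the threshold, most of all for clone 15 against parental cells.

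Positions, lengths and words come from GENCODE 29 (67 members matched by ID, the others through an older name), promoters (63 members matched) and the starts that define neighbouring pairs (chosen over GENCODE 29 after seeing the data) from RefSeq on GRCh38.p14, and symbols from a table of gene names (60370 of 60683 IDs).

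Alternatives were other size factors, DESeq2 1.42.0, other filters, unstranded counts, 1 fit over all libraries, a replicate block, GC and length trends, unique members only and leaving out each library. The members and lists were chosen with earlier results of these data known. Named genes are the H1 genes, the 3 highest tested members of each other family, the 3 largest increases and decreases per comparison among members at 1 CPM or more, the core processing genes, and the top 2 called genes of each other list, of which NEFM alone is described for the cell type markers. Reporter transcripts were not analysed here. 1 histone variant gene and 1 HEK293T marker gene are not reported here and were left out of their lists' counts.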

Additional observations from a re-analysis of the deposited data

Results flagged for a closer look

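Against parental cells 5 members were called lower in clone 37 and higher in clone 15, so the clones differed in direction for them. The log2 fold change of clone 37 against clone 15 was -2.89 for H2BC8, -2.59 for H2AC8, -1.74 for H3C7, -1.13 for H3C12 and -0.70 for H4C2. Choosing members by opposite calls against the same parental libraries fixes this sign, so the values are a description and no test. Clone 15 alone had 100 bp reads, which its differences cannot be told apart from.

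Counts on the strand opposite to the gene entered the comparisons only through the unstranded alternative. On that strand 5 members had more than 3 counts and more than on their own, and H4C13 had 1 against 0. H4C9 had 1903 opposite-strand counts over the 9 libraries, H1-1 had 59, H1-5 had 46, H3C3 had 13 and H2BC12L had 5. For H4C9 these were 132, 127 and 106 in the parental libraries, 244, 197 and 259 in clone 37, and 403, 238 and 197 in clone 15.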

How the results depend on the processing

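Among 243 alternative values of called totals and summed levels, 2 moved past 1.5 times: 11 processing genes called in clone 37 against parental cells without clone 37 replicate 3 (17 with all libraries, range 11 to 19 over single libraries left out), and 3 histone variants called between the clones without clone 37 replicate 1 (6 with all, range 3 to 6). Members called ranged from 38 to 44, 26 to 30 and 31 to 36 in clone 37 and clone 15 against parental cells and between the clones over single libraries left out, and 41 to 43, 26 to 30 and 31 to 38 under the other settings. With only members with under 10% of words in another gene, 34 of 36, 22 of 35 and 29 of 36 were called. With GC and length trends removed, the clone 15 median of members went from -0.27 to -0.42 and the members called higher from 5 to 3. Library totals with no TMM scaling, chosen after seeing the data, gave log2 ratios of the sums of -0.48, -0.38 and -0.09. Of 187 single-gene values 19 changed sign under an alternative, and 16 of these were called neither as reported nor there. The other 3 were NPAT (0.20) and CASP8AP2 (0.098) in clone 15 with GC and length trends removed, and H4C3 between the clones (-0.15 without clone 15 replicate 2, with a range up to 0.10 over single libraries left out). The cause was not tested.

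Same-numbered libraries did not deviate together (correlations of -0.15 to 0.02 over 9 pairs), so the numbers do not pair them. A replicate block called 42, 27 and 36 members, against 42, 27 and 35 without it. The 24 members never tested had too few counts for a test. Exact permutation tests of sums cannot go below p = 0.1 with 3 libraries a group.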
